A study of Mus musculus with 14 samples.

Results

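Embryoid bodies (EBs) differentiated for 6 days toward motor neurons were set against the tissue in which such neurons are found, the spinal cord of newborn mice. The comparison rests on 2 of the 11 RNA-seq samples of the series, which holds 14 samples in all: 1 library of day 6 EBs labelled WT and 1 library of newborn spinal cord labelled WT. Both carry the genotype label wild type. The EBs were grown from embryonic stem (ES) cells of the JM8 clone, of C57BL/6 background, with retinoic acid added together with SAG, an agonist of Smoothened. The cord library is dissected tissue of newborn animals of the same background, although its label also names the JM8 clone, and the number of animals behind it is not given in the sources used here. Poly-A RNA was sequenced in both. EBs are mixed cultures, and the cells in this library were not sorted for a motor neuron reporter.

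Spinal motor neurons arise from ventral progenitors under the joint action of retinoic acid, which gives the neural tube its caudal identity, and Sonic hedgehog, which patterns it from the floor plate. SAG stands in for the hedgehog ligand by acting on Smoothened, its signal transducer. Progenitors that express Olig2 and Nkx6-1 leave the cell cycle and turn on the homeodomain factors Mnx1, Isl1 and Lhx3, after which the young neurons extend axons and later acquire synapses and channels. The newborn cord holds neurons of many classes, astrocytes, oligodendrocyte precursors, vessels and immune cells beside its motor neurons. TAF9B is a paralog of TAF9, a histone-fold subunit shared by TFIID, the complex that recognizes core promoters, and by the histone acetyltransferase complex SAGA.

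Each table lists 23152 loci with a value in FPKM, fragments per unit of transcript length and of mapped fragments, so levels of different genes are on a per-length scale. Of these, 23109 were joined between the EB table and the cord table, 14272 exceeded 1 FPKM in the EBs, the cord or both (called expressed here) and 11158 were above 1 FPKM in both. There are no replicates on either side, so no difference below carries a p-value or an error, and every statement holds for this pair of libraries. The depth is unknown, since read counts are not part of the tables. The EBs and the cord come from separate tables that were normalized separately, so culture against tissue and table against table cannot be told apart. As bulk RNA, the libraries also cannot tell fewer cells of a type from less RNA per cell. *Taf9b* went against the labels in culture: its value was 1.37 FPKM in day 6 EBs labelled WT against 4.01 FPKM in day 6 EBs labelled KO. The genotype of the EB library is therefore given as its label only.

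All differences are log2 ratios of EB over cord, centred on their median over the loci above 1 FPKM in both libraries. The uncentred median was 0.48, or 1.40-fold higher values in EBs. At more than 2-fold, 3338 of the 14272 expressed loci (23.4%) were higher in EBs and 4657 (32.6%) were lower, so 56% of the expressed loci lay past 2-fold. At more than 4-fold, 1412 loci (9.89%) were higher and 2976 (20.9%) were lower. The balance of these counts depends on the scaling: among the loci past 2-fold 41.8% were higher in EBs, against 56.8% with no centring, 31.1% when centred on a list of housekeeping genes and 28.5% when both libraries were brought to the same sum. These scalings moved the median of all loci by 0.48, -0.34 and -0.43. Among the expressed loci, 225 were listed at 0 in cord and 171 were listed at 0 in EBs.

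**Figure D1:**
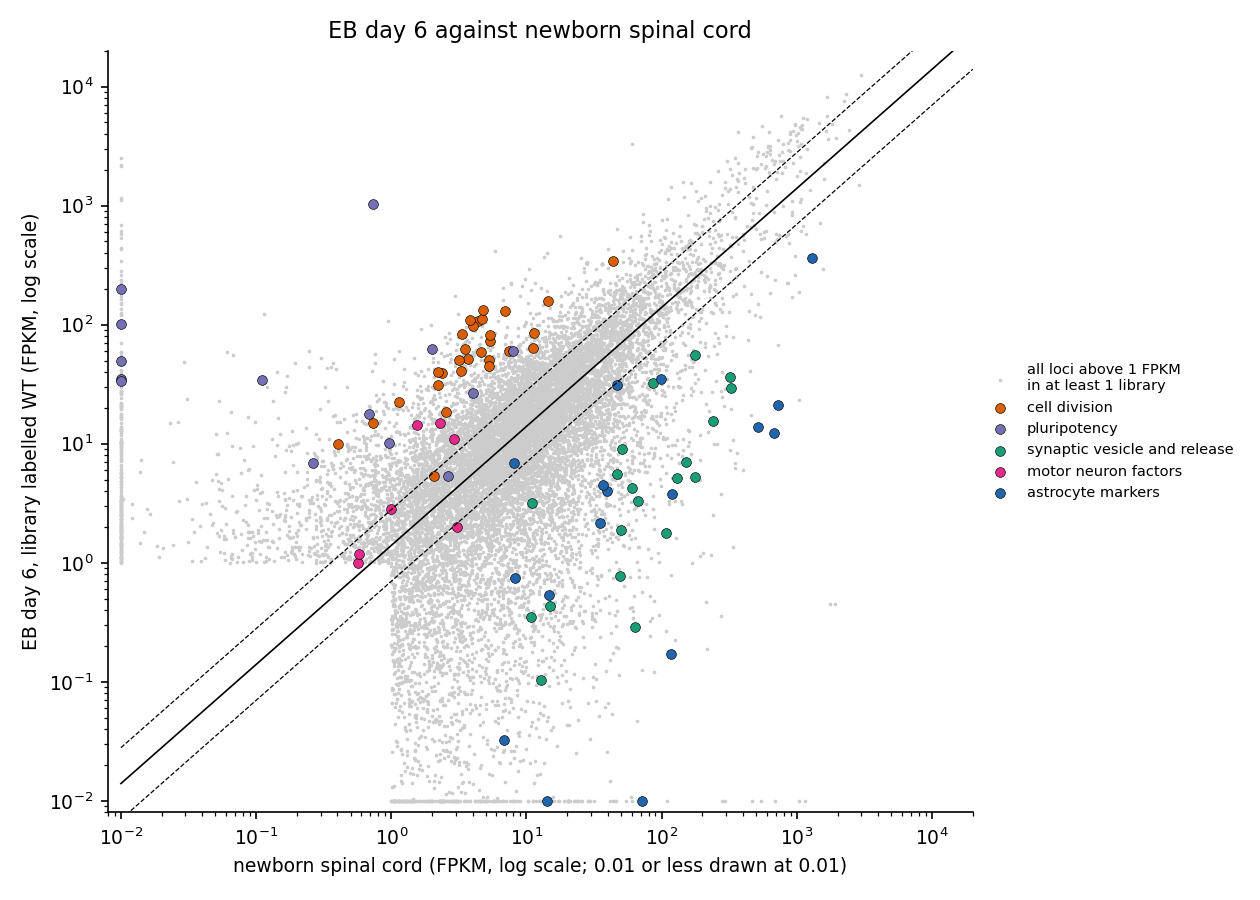
FPKM of each expressed locus in newborn spinal cord (x axis, log scale) and in the day 6 EB library labelled WT (y axis, log scale), with 5 gene lists coloured. The solid line is the median ratio and the dashed lines are 2-fold either way. Cell division and pluripotency genes lie above the band with 28 of 29 and 13 of 14 genes past 2-fold, all 20 synaptic vesicle genes and 16 of 17 astrocyte markers lie below it, and 4 of the 6 expressed motor neuron factors are past 2-fold above it.

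Genes were described in 57 lists with 835 genes found in the tables. Some of the lists are shown with 1 point per expressed gene in the plot of gene lists. Among all lists with a defined median ratio, epithelial and pluripotency genes had the highest medians. Microglial genes had the lowest median, followed by erythroid genes and then by genes of inhibitory and glutamate transmission. Over all expressed loci the median centred log2 ratio was -0.12, with median levels of 8.51 FPKM in EBs and 7.71 FPKM in cord.

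**Figure D2:**
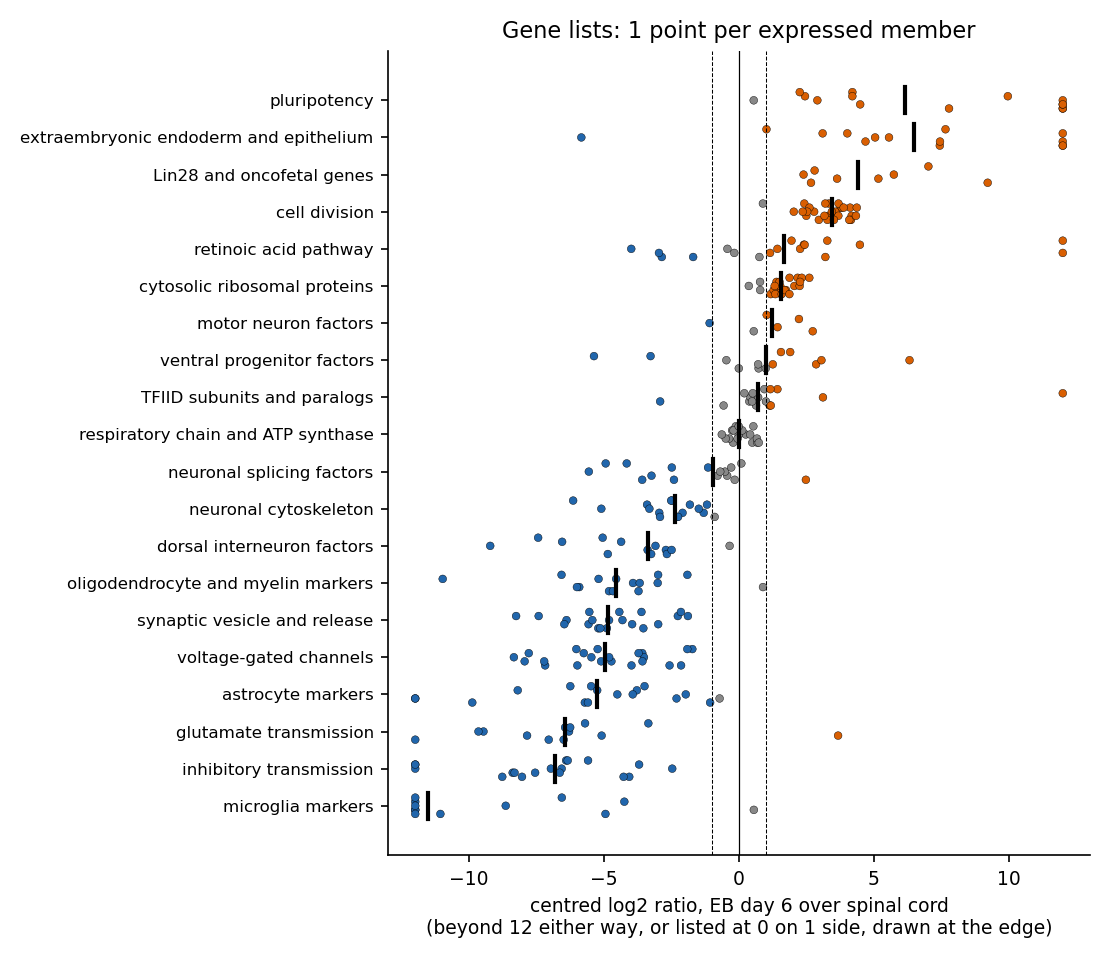
Centred log2 ratio of day 6 EBs over newborn spinal cord (x axis) for the expressed genes of 20 lists (rows), 1 point per gene, with a bar at the median of each list, dashed lines at 2-fold and genes listed at 0 on one side drawn at the edge. Orange points are more than 2-fold higher in EBs, blue points more than 2-fold lower and grey points between. The median of cell division genes was 3.44 and that of synaptic vesicle genes was -4.86, while all 18 respiratory chain genes fell between the dashed lines.

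The transcription factors that define motor neurons were present in both libraries, and several were higher in EBs. Of the 7 factors listed, 6 were expressed, 4 of these were more than 2-fold higher in EBs (23.4% of all expressed loci were) and 1 was lower. Under other scalings 5 of 6 were higher with no centring, 3 when centred on housekeeping genes and 2 at equal sums, and 3 with 1 FPKM added. *Mnx1*, the homeodomain factor that consolidates motor neuron identity, was at 14.3 FPKM in EBs and 1.54 FPKM in cord (log2 ratio 2.73). *Lhx3*, which acts with Isl1 in the motor neuron complex, was at 14.9 and 2.29 FPKM (2.22), and its relative *Lhx4* at 2.83 and 0.993 FPKM (1.03). *Isl1* was at 11.0 and 2.91 FPKM (1.43). *Isl2*, a factor of postmitotic motor neurons, was the one on the other side, at 2.02 FPKM in EBs and 3.07 FPKM in cord (-1.09). *Onecut2* was within 2-fold at 1.18 and 0.580 FPKM, and *Onecut1* stayed under 1 FPKM in both libraries, at 0.998 and 0.563 FPKM.

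This group depended on which EB library was used. In the day 6 EB library labelled KO, *Mnx1* was at 1.62 FPKM, *Lhx3* at 0.335 FPKM and *Isl1* at 0.549 FPKM, and 0 of the 4 members expressed in that pairing were more than 2-fold higher than in cord. In the spinal column, a dissection that also holds vertebrae and is another tissue of newborn mice in the series, *Isl1* was at 7.57 FPKM and *Isl2* at 19.7 FPKM, above the cord, whereas *Mnx1* and *Lhx3* were lower, at 0.353 and 0.727 FPKM. With the column in place of the cord, 3 of the 6 expressed factors were more than 2-fold higher in EBs.

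Genes that subdivide motor neurons or equip them for transmission were less uniform. Of 12 expressed genes of motor columns and pools, 1 was higher in EBs, a share below the 23.4% of all expressed loci. Another 5 were lower, near the 32.6% of all expressed loci. *Foxp1*, a determinant of limb-innervating columns, was within 2-fold at 9.37 FPKM in EBs and 5.60 FPKM in cord, while *Aldh1a2*, the retinaldehyde dehydrogenase that marks some of these columns, was lower at 4.49 and 25.1 FPKM (-2.97). *Esrrg* and *Rbfox3*, which distinguish mature motor neuron types, were lower still, with log2 ratios of -4.40 and -4.16. The higher member was *Esrrb*, at 26.9 and 4.04 FPKM, which is also a gene of pluripotent cells and was at 135 FPKM in the ES cells labelled WT.

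Of 6 expressed cholinergic genes 3 were within 2-fold and 3 were lower in EBs, where 32.6% of all expressed loci were. *Slc18a3*, the vesicular acetylcholine transporter, was at 32.2 FPKM in EBs and 22.5 FPKM in cord (0.03), and *Chat*, the enzyme that makes acetylcholine, at 1.05 and 0.791 FPKM (-0.08). *Slc10a4*, a transporter of cholinergic vesicles, was at 10.4 and 10.1 FPKM (-0.44). The remaining members were lower in EBs: the choline transporter *Slc5a7* at 0.0286 and 3.78 FPKM (-7.53), acetylcholinesterase *Ache* at 1.36 and 67.9 FPKM (-6.13) and its membrane anchor *Prima1* at 1.60 and 2.41 FPKM (-1.08). Among factors of hindbrain motor neurons, *Tbx3* was at 10.1 FPKM in EBs and 0.965 FPKM in cord (2.90), and *Phox2a* was within 2-fold at 3.11 and 2.34 FPKM.

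Progenitor genes of the ventral neural tube were higher in EBs or within 2-fold, with 6 of 13 higher (23.4% of all expressed loci were) and 2 lower (32.6% were). *Dbx1*, which marks progenitors of interneurons, was at 16.3 FPKM in EBs and 0.146 FPKM in cord (6.32), the highest ratio of the list. *Sox3* (3.06), *Irx3* (2.86) and *Nkx6-1* (1.25) were also higher. *Olig2*, the determinant of motor neuron progenitors that later drives oligodendrocyte formation, was at 34.1 and 14.7 FPKM (0.73), and *Pax6* at 13.3 and 4.77 FPKM (0.99), both short of 2-fold. *Nkx2-2*, a factor of the ventral p3 domain and of oligodendrocyte precursors, was lower at 1.08 and 7.50 FPKM (-3.28), and so was *Dbx2* at 0.245 and 7.28 FPKM (-5.38). With EBs labelled KO the list had a median of 2.44 FPKM, against 13.3 FPKM in EBs labelled WT and 5.10 FPKM in cord, while *Nkx6-1* lay below the cord (-3.65) and *Sox3* level with it (-0.02).

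Proneural bHLH factors, which commit progenitors to a neuronal fate, divided by stage. *Neurog2* was at 44.3 FPKM in EBs and 0.357 FPKM in cord (6.47), *Neurog1* at 29.7 FPKM and *Neurod4* at 8.47 FPKM, both listed at 0 in cord. *Neurod1* was at 9.30 and 2.36 FPKM (1.50). *Neurod2* and *Neurod6*, which belong to later neurons, were at 0.0180 and 0 FPKM in EBs against 8.59 and 12.6 FPKM in cord, and *Ebf1*, *Ebf2* and *Ebf3* were lower with log2 ratios of -4.69, -3.56 and -3.52. In all, 4 of the 10 expressed members were higher and 6 lower (23.4% and 32.6% of all expressed loci were). With EBs labelled KO, *Neurog2* (-1.19) and *Neurod1* (-1.51) lay below the cord.

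Of 18 Notch pathway genes, 3 were higher in EBs, 6 were lower and 9 were within 2-fold, shares near those of all expressed loci (23.4% higher and 32.6% lower). The higher ones were the ligand *Dll3* (21.2 and 6.78 FPKM), the glycosyltransferase *Mfng* (30.5 and 1.87 FPKM, log2 ratio 3.55) and the target *Hes1* (39.0 and 4.06 FPKM, 2.78). With EBs labelled KO *Dll3* lay below the cord (-3.00). *Hes5*, the Notch target of neural progenitors, was within 2-fold at 24.4 and 21.2 FPKM, while *Hey2* was lower at 1.43 and 13.4 FPKM (-3.71). The hedgehog pathway was close to the cord in the components that receive and relay the signal, where 1 of 11 genes was past 2-fold. *Smo*, the target of SAG, was at 26.6 and 14.4 FPKM, the receptor and target *Ptch1* at 11.2 and 12.5 FPKM and the effector *Gli1* at 6.98 and 3.01 FPKM. Of the ligands, *Shh* (0.337 and 1.14 FPKM) and *Dhh* (0.158 and 2.45 FPKM) were lower in EBs.

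Factors of the other neuronal classes of the cord were low in EBs. Of 13 expressed dorsal interneuron factors, 12 were lower in EBs (32.6% of all expressed loci were) and 0 higher. *Lbx1*, the selector of dorsal horn association neurons, was at 0.970 FPKM in EBs and 20.2 FPKM in cord, *Pax2*, a factor of inhibitory interneurons, at 1.74 and 25.7 FPKM, and *Prrxl1*, a factor of nociceptive circuits, at 0.0220 and 9.40 FPKM (-9.22). *Lhx2* was the member within 2-fold. Set against the same 32.6%, 6 of 9 expressed ventral interneuron factors were lower. *Gata3* was higher at 1.91 and 0.671 FPKM, *Gata2* was within 2-fold, and the related blood and V2b factor *Tal1* was lower (-5.04). Of 6 expressed dorsal progenitor factors 4 were also lower, including *Zic1* at 1.57 and 59.7 FPKM (-5.73), and *Msx2* was higher at 2.30 and 0.522 FPKM.

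The machinery of synaptic transmission was far lower in EBs. All 18 genes of inhibitory transmission were lower in EBs (32.6% of all expressed loci were), with median levels of 0.169 FPKM in EBs and 23.7 FPKM in cord. *Gad1*, which makes GABA, was at 0.124 and 38.8 FPKM (-8.77), *Slc32a1*, the vesicular transporter of GABA and glycine, at 0.758 and 68.1 FPKM (-6.97), and the glycine transporter *Slc6a5* was at 0 and 15.1 FPKM. Receptor genes behaved alike, such as *Gabra3* at 0.141 and 32.1 FPKM (-8.32). *Gphn*, the scaffold that clusters these receptors, was the least different member at 8.73 and 34.7 FPKM (-2.48). Of 13 expressed genes of glutamate transmission, 12 were lower. *Slc17a6*, the vesicular glutamate transporter of the cord, showed the lowest ratio of the list at 0.0108 and 59.3 FPKM (-12.91), and *Grin1*, the obligatory subunit of NMDA receptors, was at 0.886 and 48.5 FPKM (-6.26). *Slc17a7*, a relative of *Slc17a6*, was the exception, at 3.37 and 0.189 FPKM (3.67), although it lay below the spinal column (-0.44).

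All 20 genes of synaptic vesicles and release were more than 2-fold lower in EBs, against 32.6% of all expressed loci, with a median log2 ratio of -4.86 and median levels of 4.68 and 65.0 FPKM. The SNARE gene *Snap25* was at 7.08 FPKM in EBs and 151 FPKM in cord (-4.90), and the vesicle protein *Syp* at 15.4 and 238 FPKM (-4.44). Within the list, paralogs differed in size. *Vamp2* was at 36.3 and 318 FPKM (-3.62) and *Vamp1* at 0.289 and 63.4 FPKM (-8.26), and *Syt11* (-1.89) was the least different member. All 22 expressed voltage-gated channel genes were lower as well, with *Scn2a*, a sodium channel of axons, at 0.0976 and 17.2 FPKM (-7.95) and the potassium channel *Kcna2* at 0.0200 and 4.64 FPKM (-8.34). So were all 15 expressed neuropeptide and granin genes, *Sst* being the most abundant of them in EBs at 130 FPKM, against 445 FPKM in cord. *Tac1* and *Pdyn* were at 0 FPKM in EBs and at 43.9 and 15.3 FPKM in cord.

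The neuronal cytoskeleton was also lower in EBs in 15 of 16 genes, but at high levels in both libraries, with medians of 101 FPKM in EBs and 268 FPKM in cord. *Tubb3*, the general neuronal tubulin, was within 2-fold at 561 and 749 FPKM (-0.90). *Nefm* (107 and 189 FPKM, -1.31) and *Ina* (95.7 and 156 FPKM, -1.19, or 0.31 against spinal column) were close to it, and the growth-cone protein *Gap43* was at 184 and 628 FPKM (-2.26). The heavy neurofilament *Nefh* had the lowest ratio of the neurofilament genes, at 1.38 and 33.9 FPKM (-5.10). Tau, *Mapt*, had the lowest of the list, at 6.86 and 348 FPKM (-6.15). In the EB library labelled KO the median of the list was 6.59 FPKM and *Tubb3* was at 41.3 FPKM. Of 24 expressed axon guidance genes 17 were lower, where 32.6% of all expressed loci were, and 4 were higher, a share below the 23.4% of all expressed loci. The higher ones were the chemokine receptor *Cxcr4* (39.6 and 7.29 FPKM, 1.96), the netrin receptors *Unc5b* (1.79) and *Unc5a* (1.22) and the ligand *Slit3* (1.36), of which *Cxcr4*, *Unc5a* and *Slit3* lay below the cord with EBs labelled KO (-1.53, -2.73 and -0.29).

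**Figure D3:**
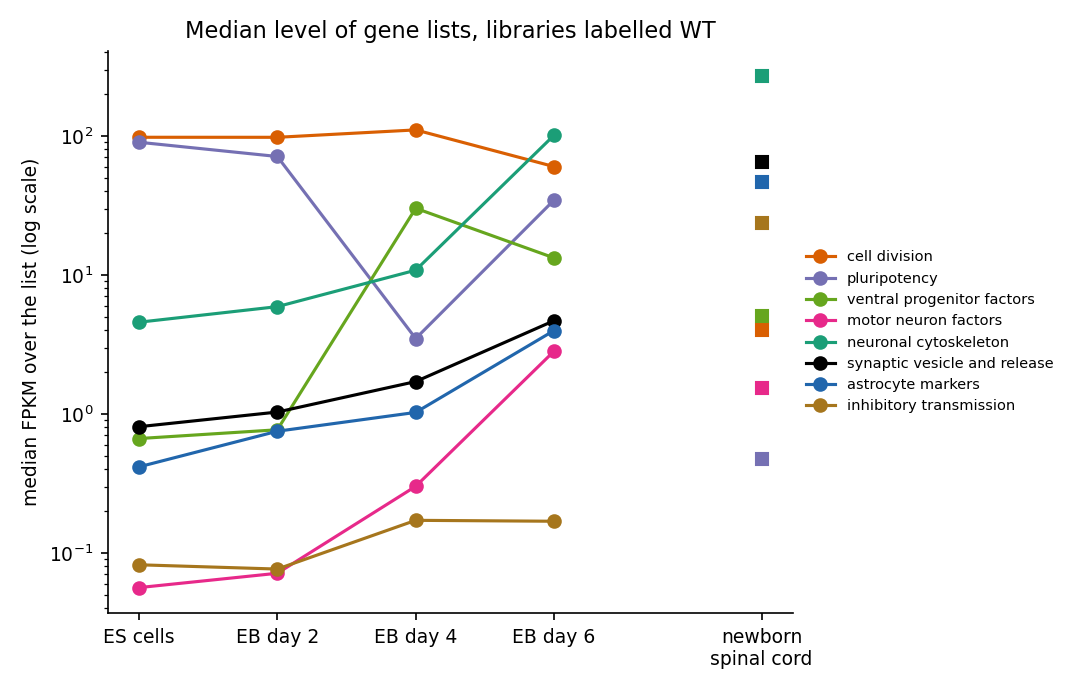
Median FPKM (y axis, log scale) of 8 gene lists in the libraries labelled WT of ES cells, EBs at days 2, 4 and 6 (circles joined by lines) and newborn spinal cord (squares). Each point is 1 library. The cytoskeleton median went from 10.8 FPKM at day 4 to 101 FPKM at day 6, that of synaptic vesicle genes from 1.71 to 4.68 FPKM against 65.0 FPKM in cord, and that of inhibitory transmission stood at 0.172 and 0.169 FPKM against 23.7 FPKM in cord.

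The plot of list medians by day places the EBs on these programmes. Motor neuron factors had medians of 0.0563, 0.0714, 0.301 and 2.83 FPKM in ES cells and EBs of days 2, 4 and 6, above the 1.54 FPKM of the cord. Ventral progenitor factors were highest at day 4, at 30.2 FPKM, and at 13.3 FPKM on day 6. Across the 14272 expressed loci Spearman's rho with the cord was 0.479 for ES cells, 0.483 for day 2, 0.558 for day 4 and 0.602 for day 6, while the spinal column stood at 0.842 and day 6 EBs against ES cells at 0.867. These values describe the libraries across loci, which are not independent, and the tables were normalized separately.

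Cell types of the cord other than neurons were represented by markers that were nearly all lower in EBs, where 32.6% of all expressed loci were. The 17 astrocyte markers summed to 499 FPKM in EBs and 3828 FPKM in cord, and 16 were lower. Of the EB sum 363 FPKM lay in 1 member, and the medians were 3.98 and 46.8 FPKM. *Gfap* was at 0.173 and 117 FPKM (-9.89), the water channel *Aqp4* at 0.00940 and 72.0 FPKM and the radial glia protein *Fabp7* at 21.0 and 729 FPKM (-5.60), whereas *Sox9*, which is also a progenitor factor, was within 2-fold at 6.85 and 8.06 FPKM. Of 15 expressed oligodendrocyte and myelin markers 14 were lower, with sums of 36.8 and 304 FPKM over the list. *Sox10* was at 0.577 and 25.0 FPKM and *Gpr17*, of committed precursors, at 0.0109 and 15.7 FPKM, while *Myrf* was within 2-fold at 3.96 and 1.53 FPKM. *Opalin*, of mature oligodendrocytes, was listed at 0 in both libraries.

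Blood, vessel and connective tissue markers were also in the cord library, and their counts are set against the same 32.6%. Of 12 microglia markers 11 were lower in EBs. They summed to 46.3 FPKM in EBs and 196 FPKM in cord, but 1 member held nearly all of the EB sum, and the medians were 0.0259 and 13.1 FPKM. *C1qa*, *C1qc*, *Tyrobp*, *Ctss* and *P2ry12* were at 0 in EBs. The erythroid list summed to 0.694 and 3535 FPKM, most of it in the globin genes *Hba-a2* (0.452 and 1899 FPKM), *Hbb-bs* (0 and 1155 FPKM) and *Hbb-bt* (0 and 469 FPKM), whose near-identical copies share reads. Of 14 endothelial and mural markers 13 were lower in EBs (sums of 12.2 and 141 FPKM), of 13 meningeal and fibroblast markers all 13 (68.0 and 781 FPKM), of 8 ependymal markers all 8 (3.66 and 40.1 FPKM), and of 8 Schwann cell markers 5 (52.9 and 173 FPKM). Of 12 cartilage, bone and muscle markers 6 were expressed, 5 of them lower in EBs and 1 higher, and the muscle genes *Acta1* and *Ckm* were at 112 and 14.7 FPKM in cord. Neutrophil markers summed to 49.7 FPKM there. The part of these cells in any difference between EBs and cord was not tested.

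Genes of cell division were higher in EBs almost without exception. All 14 genes of DNA replication and 14 of 15 genes of mitosis were more than 2-fold higher in EBs, where 23.4% of all expressed loci were. The list had median levels of 60.1 FPKM in EBs and 4.01 FPKM in cord, and 97.7 FPKM in ES cells. The replicative helicase gene *Mcm5* was at 97.5 and 4.01 FPKM (4.12), the sliding clamp *Pcna* at 341 and 43.3 FPKM (2.49), and the mitotic cyclin *Ccnb1* at 110 and 3.83 FPKM (4.36), the highest ratio of the list. *Mki67* was the member within 2-fold, at 5.39 and 2.09 FPKM (0.89). In the EB library labelled KO the list had a median of 71.1 FPKM, and in spinal column it had 5.81 FPKM. Of 7 cell cycle inhibitors 3 were also higher in EBs and 0 lower. *Cdkn1c*, which accompanies cell cycle exit, was at 228 and 59.2 FPKM (1.46) but lay below the spinal column (-1.61), and *Cdkn2a* was at 58.8 and 0 FPKM.

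The promoters of these genes are shown because the list moved together and because letters typical of cell cycle promoters could be searched. RefSeq promoters on GRCm38.p6 (250 bases before to 50 bases after each start) were found for 24 of the 29 genes. An E2F site was taken as TTTCGCGC, TTTGGCGC, TTTCCCGC or TTTGCCGC on either strand, and a CCAAT box as CCAAT on either strand. E2F letters were in 6 of 11 promoters of replication genes (54.5%) and in 1 of 13 of mitosis genes (7.69%), against 2.6% of the 27025 genes with a promoter. CCAAT letters were in 8 of 11 (72.7%) and 12 of 13 (92.3%), against 41.1%. Among all expressed genes, E2F letters were in 6.99% of those higher in EBs, 4.74% of those within 2-fold and 2.74% of those lower. A match is a match of letters and not a site shown to be bound. The 200 bases before the start of *Mcm5* (GRCm38.p6, chr8:75109309-75109508, + strand) and of *Ccnb1* (chr13:100786487-100786686, - strand) are printed 5′ to 3′ of the gene. Capitals mark the E2F matches in *Mcm5*, whose CCAAT letters stay in lower case, and the CCAAT matches in *Ccnb1*. The *Mcm5* promoter holds an overlapping pair of E2F matches that begin 153 and 149 bases before the start, and the *Ccnb1* promoter holds 2 CCAAT matches that begin 99 and 67 bases before it.
Mcm5: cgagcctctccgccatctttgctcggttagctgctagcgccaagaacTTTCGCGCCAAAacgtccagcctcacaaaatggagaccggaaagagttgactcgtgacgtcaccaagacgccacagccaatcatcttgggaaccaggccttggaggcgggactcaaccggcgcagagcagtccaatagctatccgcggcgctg
Ccnb1: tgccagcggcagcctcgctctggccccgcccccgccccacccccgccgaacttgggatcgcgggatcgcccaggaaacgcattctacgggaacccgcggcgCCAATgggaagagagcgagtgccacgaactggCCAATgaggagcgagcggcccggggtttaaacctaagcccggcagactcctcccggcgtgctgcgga

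Pluripotency genes were present in the day 6 EBs and low or at 0 in cord. Of 14 genes, 13 were more than 2-fold higher in EBs (23.4% of all expressed loci were), and 5 were listed at 0 in cord. *Pou5f1*, the POU factor of pluripotent cells, was at 198 FPKM in EBs and 0 in cord, *Nanog* at 62.5 and 1.99 FPKM (4.49), and *Dppa5a* at 1026 and 0.734 FPKM (9.96). *Klf4* was within 2-fold at 5.41 and 2.65 FPKM. The summed level of the list was 1666 FPKM in EBs and 19.4 FPKM in cord. Most of the EB sum lay in *Dppa5a*, and the medians were 34.5 and 0.477 FPKM. The EB label names motor neurons, and the library carries the pluripotency genes beside the motor neuron factors. The latter, a list of 7 genes, had a summed level of 47.2 FPKM and a median of 2.83 FPKM in EBs. In the EB library labelled KO *Pou5f1* was at 543 FPKM and *Nanog* at 172 FPKM.

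Epithelial and extraembryonic genes followed the same direction, with 13 of 14 expressed members higher, against the same 23.4%. The keratins *Krt8* (47.2 and 0.194 FPKM) and *Krt18* (60.4 and 0.247 FPKM) had log2 ratios of 7.44 and 7.45, and the adhesion molecule *Epcam* was at 40.2 and 0.143 FPKM (7.65). *Afp*, a product of yolk sac and fetal liver, was lower, at 0.171 and 7.04 FPKM. The RNA-binding and chromatin proteins of the Lin28 axis, which are typical of embryonic cells, were higher in all 8 genes. *Lin28a*, which blocks the maturation of let-7 microRNAs, was at 55.9 and 0.0672 FPKM (9.22), *Igf2bp1* at 44.5 and 0.245 FPKM (7.02), and *Hmga1* at 607 and 82.6 FPKM (2.39).

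Host transcripts of 2 microRNAs are shown because they differed in opposite directions. They were chosen after their values were seen, and poly-A sequencing measures the host transcript and not the mature microRNA. *Mir17hg*, the host of a microRNA cluster that promotes proliferation (mm9, chr14:115443527-115445950), was at 3.29 FPKM in EBs and 0.00942 FPKM in cord (7.97), and at 64.4 FPKM in the EB library labelled KO. *Mir9-3hg*, a host of miR-9, which is abundant in neural progenitors and neurons (mm9, chr7:86644912-86679289), was at 0.662 FPKM in EBs and 18.3 FPKM in cord (-5.27). A mature sequence from each, from RefSeq, is given with its seed, bases 2 to 8, in capitals.
mmu-miR-17-5p: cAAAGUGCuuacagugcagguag
mmu-miR-9-5p: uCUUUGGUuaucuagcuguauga

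Genes of the retinoic acid pathway were higher in EBs in 11 of 18 expressed members and lower in 4, where 23.4% and 32.6% of all expressed loci were. The enzymes that clear retinoic acid were all higher, with *Cyp26a1* at 173 FPKM in EBs and 0 in cord, *Cyp26b1* at 67.3 and 5.23 FPKM (3.20) and *Cyp26c1* at 1.92 and 0 FPKM. Of the enzymes that make it, *Rdh10* was within 2-fold at 5.53 and 5.33 FPKM, *Aldh1a2* was lower as given above, and *Aldh1a1* was lower at 0.598 and 3.11 FPKM (-2.86). Among carriers, *Crabp2* was at 552 and 17.7 FPKM (4.48) and *Crabp1* at 483 and 129 FPKM (1.42, or -0.33 with EBs labelled KO), while serum carrier *Rbp4* was lower at 4.22 and 9.81 FPKM. The receptors *Rarb* (27.1 and 3.59 FPKM, 2.43), *Rara* (2.27) and *Rarg* (1.95) were higher, *Rxra* and *Rxrb* were within 2-fold, and *Rxrg* was lower at 0.774 and 8.81 FPKM (-3.99). *Stra8*, a gene induced by retinoic acid and needed for entry into meiosis, was at 692 FPKM in EBs and 0 in cord, and at 0.875 FPKM in ES cells.

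Promoters of 15 of these genes were searched for a direct repeat with 5 bases between the copies, on either strand, where a copy was the word AGGTCA, the word AGTTCA, the word GGTTCA or the word GGGTCA. It was in 2 of them, *Cyp26a1* and *Rarb*, and in 31 of the 27025 genes with a promoter (0.115%). The 200 bases before each start are printed 5′ to 3′ of the gene with the repeat in capitals (GRCm38.p6, chr19:37697608-37697807, + strand for *Cyp26a1* and chr14:16575477-16575676, - strand for *Rarb*). The match begins 32 bases before the start of *Cyp26a1*, where it reads in the reverse direction, and 53 bases before that of *Rarb*.
Cyp26a1: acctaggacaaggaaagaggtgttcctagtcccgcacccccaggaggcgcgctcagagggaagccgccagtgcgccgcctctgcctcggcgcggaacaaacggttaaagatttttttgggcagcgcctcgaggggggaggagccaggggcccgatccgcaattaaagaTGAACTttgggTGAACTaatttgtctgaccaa
Rarb: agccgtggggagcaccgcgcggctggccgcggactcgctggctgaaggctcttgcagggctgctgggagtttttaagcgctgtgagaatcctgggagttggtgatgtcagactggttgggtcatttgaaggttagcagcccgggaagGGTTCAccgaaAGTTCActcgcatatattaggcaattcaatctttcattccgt

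Hox genes, which record position along the body axis, divided by their place in the clusters. Of the 39 Hox genes, 37 were expressed, of which 16 were higher in EBs and 18 lower, against 23.4% and 32.6% of all expressed loci. Among the 22 above 1 FPKM in both libraries 9 were lower, fewer than were higher. In paralog groups 1 to 4, the anterior end, 11 of 12 were higher, with median levels of 34.3 FPKM in EBs and 2.23 FPKM in cord. In groups 5 to 8, 4 were higher and 6 lower of 11. In group 9 all 4 were lower, and in groups 10 to 13, 8 of 10 expressed genes were lower and 1 was higher, with medians over the listed genes of 0.378 and 13.2 FPKM. The plot of Hox levels by paralog group shows where the levels crossed, between groups 5 and 6 in the Hoxa cluster, 6 and 7 in Hoxb, 6 and 8 in Hoxc and 4 and 8 in Hoxd.

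**Figure D4:**
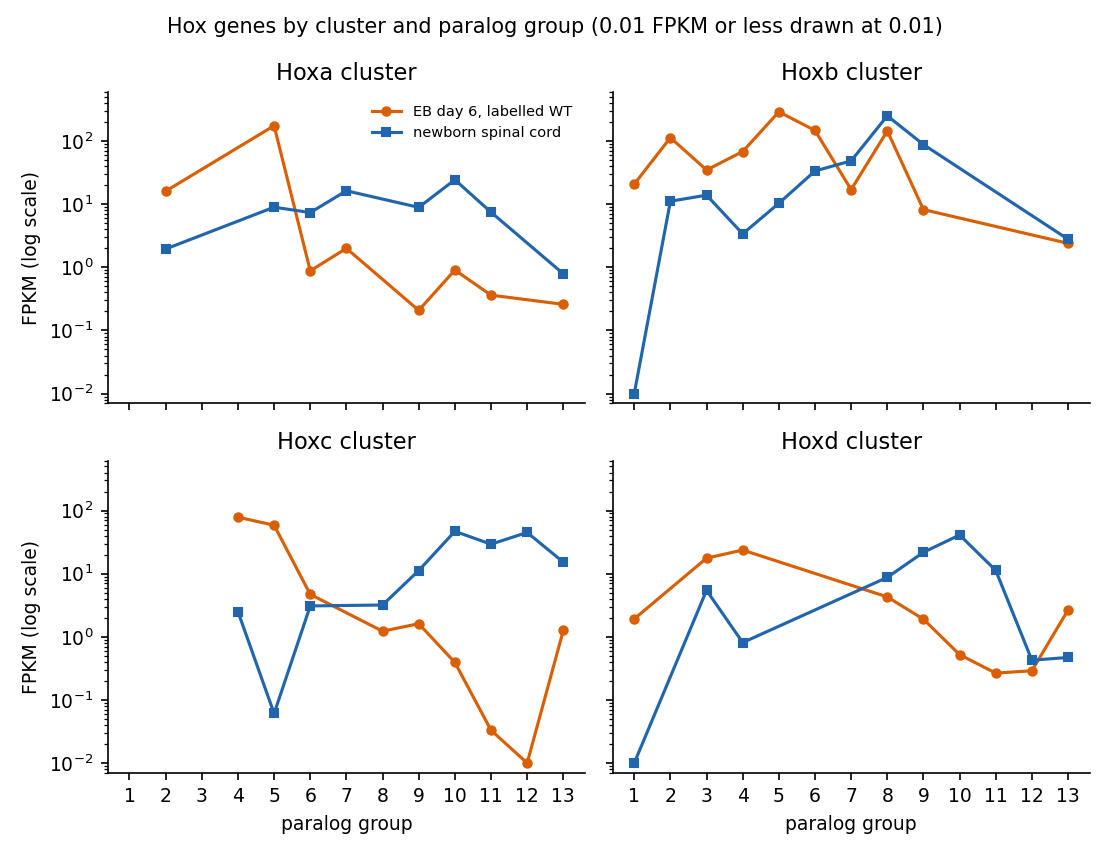
FPKM (y axis, log scale) of Hox genes by paralog group (x axis) in the 4 clusters, for the day 6 EB library labelled WT (circles) and newborn spinal cord (squares), 1 library each. EB levels exceed the cord at the anterior end, as for *Hoxb5* at 291 and 10.4 FPKM, and fall below it at the posterior end, as for *Hoxc10* at 0.393 and 46.9 FPKM.

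The members with the highest levels in EBs were of group 5, *Hoxb5* at 291 and 10.4 FPKM (4.33) and *Hoxa5* at 175 and 8.98 FPKM (3.80), and *Hoxc5* at 58.5 and 0.0610 FPKM had the highest ratio (9.42). *Hoxb1* was at 20.8 and 0 FPKM. With EBs labelled KO *Hoxb5* was near the cord (-0.27). *Hoxb8* was high in both, at 145 and 252 FPKM (-1.28, or 0.44 against spinal column). *Hoxc9*, a gene of the thoracic cord, was at 1.61 and 11.2 FPKM (-3.28). The lumbar gene *Hoxd10* was at 0.522 and 41.0 FPKM (-6.78), *Hoxc11* at 0.0331 and 29.3 FPKM (-10.27), and *Hoxc12* at 0 and 45.0 FPKM. *Hoxd13* was the posterior exception, at 2.66 and 0.471 FPKM (2.01). In the EB library labelled KO the median of groups 1 to 4 was 5.98 FPKM, between the 34.3 FPKM of the library labelled WT and the 2.23 FPKM of the cord.

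TFIID and its paralogs were mostly within 2-fold, with *Taf9b* as the single lower member. Of 17 genes, 6 were more than 2-fold higher in EBs, 1 was lower and 10 were between, with a list median of 0.71. The share of higher members, 35.3% against 23.4% of all expressed loci, was 58.8% with no centring, 17.6% when centred on housekeeping genes and 11.8% with equal sums. *Taf9b* (NM_001001176, mm9, chrX:103402213-103416497) was at 1.37 FPKM in the EB library labelled WT and 7.44 FPKM in cord (-2.92), and with the EB library labelled KO, at 4.01 FPKM, it was still the lower side. It was at 6.65 FPKM in the spinal column labelled WT. Its paralog *Taf9* was at 145 and 66.7 FPKM (0.63), so *Taf9* exceeded *Taf9b* in both libraries.

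**Figure D5:**
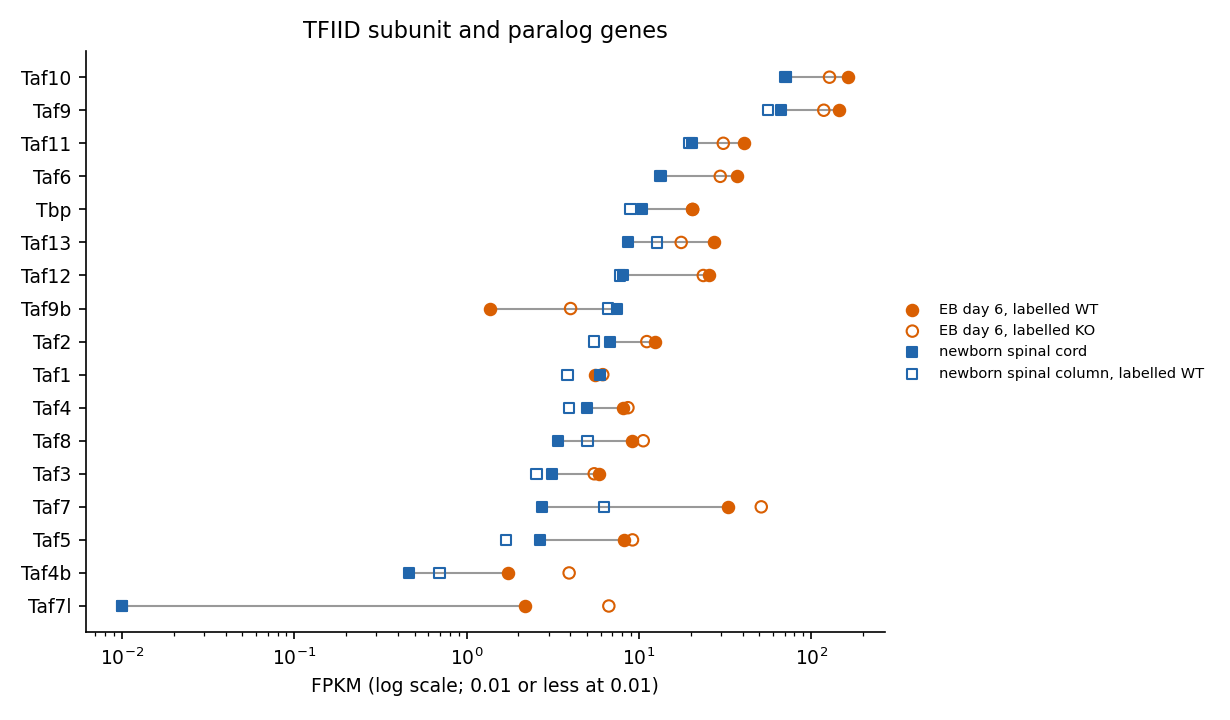
FPKM (x axis, log scale) of 17 TFIID subunit and paralog genes (rows, ordered by level in cord) in day 6 EBs labelled WT (filled circles) and KO (open circles), newborn spinal cord (filled squares) and newborn spinal column labelled WT (open squares), 1 library each. *Taf9b* is the gene whose EB values, 1.37 and 4.01 FPKM, both lie below its tissue values, 7.44 and 6.65 FPKM, whereas *Taf7* lies at 33.0 FPKM in EBs labelled WT and 2.73 FPKM in cord.

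The higher members were *Taf7* (33.0 and 2.73 FPKM, 3.11), *Taf4b* (1.75 and 0.466 FPKM, 1.42), *Taf13* (1.18), *Taf12* (1.16), *Taf5* (1.14) and the TAF7 paralog *Taf7l*, at 2.18 and 0 FPKM. *Tbp*, the TATA-binding subunit, was at 20.3 and 10.4 FPKM (0.48), and *Taf1*, the largest subunit, at 5.56 and 5.91 FPKM (-0.57). In the spinal column *Taf7* was at 6.28 FPKM.

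The other parts of the transcription machinery are read against the 23.4% of all expressed loci that were higher and the 32.6% that were lower. Of 17 general transcription factor genes, 9 were higher in EBs and 0 lower (list median 1.06), led by the TFIIE subunit *Gtf2e2* at 57.1 and 6.81 FPKM (2.58), the TFIIH helicase *Ercc2* (2.45) and *Mnat1*, of its kinase module (2.40). *Ercc2* stood at 68.1 FPKM in EBs labelled WT, 11.8 FPKM in EBs labelled KO and 8.91 FPKM in cord. Of 33 mediator subunits 7 were higher, close to that share, and 3 lower, the lower ones being *Med12l* (-2.50), *Cdk19* (-1.69) and *Med13l* (-1.24), all paralogs of subunits of the kinase module. Their counterparts *Med12*, *Cdk8* and *Med13* had log2 ratios of 0.90, 0.88 and -0.54. Of 26 SAGA and ATAC subunits 5 were higher, also close to that share, and 4 lower. *Kat2a* (35.0 and 20.5 FPKM) and *Kat2b*, which encodes PCAF (5.61 and 2.91 FPKM), were within 2-fold. Of the deubiquitinase module, *Usp22* (70.1 and 101 FPKM, -1.02), *Atxn7l3* (35.0 and 51.0 FPKM, -1.03) and *Atxn7* (0.977 and 2.24 FPKM, -1.68) were lower and *Eny2* was within 2-fold.

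Complexes that exchange subunits as progenitors become neurons were compared by subunit. In the BAF chromatin remodelling complex, 3 of 4 progenitor subunits were higher in EBs and all 4 neuronal subunits were lower, while of 11 shared subunits 2 were higher and 3 lower, near the 23.4% and 32.6% of all expressed loci. *Actl6a* was at 95.5 and 7.19 FPKM (3.25) and its neuronal counterpart *Actl6b* at 4.75 and 50.8 FPKM (-3.90). Likewise *Ss18* (1.62) and *Ss18l1* (-2.50), and *Dpf2* (1.60) and *Dpf1* (-2.68), lay on opposite sides. Earlier in the course *Actl6b* was low, with 0.0173 FPKM in ES cells and 0.0537 FPKM at day 4. Of the splicing regulators, *Ptbp1*, the repressor of neuronal exons, was at 200 and 25.7 FPKM (2.48), and its neuronal paralog *Ptbp2* was within 2-fold at 34.3 and 33.3 FPKM. *Srrm4* (4.11 and 4.21 FPKM), *Celf3* and *Elavl4* were within 2-fold too, whereas *Rbfox1* (1.70 and 57.6 FPKM, -5.57), *Celf4* (-4.94) and *Rbfox3* were lower. In the EB library labelled KO *Srrm4* was at 0.294 FPKM.

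Of the chloride transporters, *Slc12a2*, the chloride importer of immature neurons, was at 6.22 and 6.11 FPKM (-0.46), and *Slc12a5*, the exporter whose appearance makes GABA inhibitory, at 2.54 and 49.2 FPKM (-4.76). Among DNA methylation genes, *Uhrf1* (4.28), *Dnmt3b* (4.05) and *Dnmt3l* (7.46) were higher in EBs, *Dnmt1* (0.98) and *Dnmt3a* (-0.86) were within 2-fold, and *Tet3* (-1.28) and *Tet1* (-1.35, or 0.10 with EBs labelled KO) were lower. *Rest*, the repressor of neuronal genes, was within 2-fold at 2.63 and 1.21 FPKM, and its corepressor *Rcor2* was at 107 and 6.17 FPKM (3.63).

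Growth-related and general genes gave a further contrast. Of 23 cytosolic ribosomal protein genes, 20 were higher in EBs (23.4% of all expressed loci were) and 3 were within 2-fold, with medians of 2605 and 614 FPKM and a list median of 1.56, and ribosomal protein genes have many processed copies that can share reads. All 18 respiratory chain and ATP synthase genes were within 2-fold (list median -0.01), from *Cox6a1* (-0.64) to *Atp5b* (0.73). Of 12 housekeeping genes 9 were within 2-fold, among them *Actb* (0.18), *Gapdh* (0.86) and *Ppia* (0.46). *Polr2a* and *Rplp0* were higher, and *Hprt* was lower at 29.8 and 59.3 FPKM (-1.48, or 0.25 with EBs labelled KO).

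The largest ratios were led by loci whose values need care. Among loci with status OK in both tables and 10 FPKM or more in the higher library, the highest ratios included the short microRNA locus *Mir692-1* and the genes *AU018091*, *Zfp987*, *Zfp534*, *Gm4340*, *Gm21312*, *Rpl10l* and *Gm5779*, which have near-identical copies or pseudogenes and lay at or below 0.0294 FPKM in cord. Outside these families the highest were *Aqp3*, a water and glycerol channel of epithelia (51.1 FPKM in EBs and 0.00137 FPKM in cord), *Calcoco2*, an autophagy receptor (37.4 and 0.00369 FPKM), *Dppa5a*, the tight junction gene *Cldn4* (123 and 0.114 FPKM), *Hoxc5*, *Lin28a* and *L1td1*, an RNA-binding protein of pluripotent cells (23.7 and 0.0307 FPKM). Apart from *Hoxc5*, these were already at 4.84 to 3744 FPKM in the ES cells labelled WT.

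Status OK marks loci that the authors' software tested, which leaves out such genes as *Slc17a6*, *Aqp4* and *Hoxc11*. Under the same conditions, the lowest ratios included genes of neurons, glia and blood. After *Hba-a2* and *Serpinb1b* (0.0253 and 23.3 FPKM) came *Fxyd7*, a brain regulator of the sodium pump (0.354 and 276 FPKM, -10.09), *Gfap*, the imprinted *Nap1l5* (0.472 and 214 FPKM), the neuronal calcium sensor *Vsnl1* (0.265 and 107 FPKM) and the neuropeptide *Cck* (0.245 and 81.5 FPKM). The list of the 15 lowest closed with the noncoding *1500009C09Rik* and *Peg13*, the microglial receptor *Csf1r*, the perineuronal matrix gene *Bcan* (0.367 and 95.5 FPKM), the phosphatase *Ptpn5*, the prostaglandin synthase *Ptgds* (1.36 and 337 FPKM), the postsynaptic scaffold *Dlg2* and *Vamp1*. Among loci listed at 0 on one side, small RNA genes with short transcripts (*Snora61*, *Snord19*, *Snord96a* and *Snord99* at 0 in cord, *Mir5126*, *Mir762* and *Mir9-2* at 0 in EBs) had the highest values beside *Stra8* and the beta globins, and FPKM of such short loci is unreliable in poly-A libraries.

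Binding of RNA polymerase II and TAF9B near the start sites was compared as a further readout, from 8620 RNA POL2 and 10415 TAF9B peaks that the authors called in EB-derived motor neuron cultures of another clone, HBG3, which were differentiated for longer than the day 6 EBs. A gene counted as bound when the midpoint of a peak lay within 500 bp of one of its starts, and 12503 expressed genes had a start in the mm9 annotation. An RNA POL2 peak was at 51.5% of the 2888 genes higher in EBs, 64.3% of the 5505 genes within 2-fold and 29.3% of the 4110 lower genes. A TAF9B peak was at 31.8%, 33.9% and 22.9%. Because peaks go with expression, the genes were also split by their level in EBs. Among genes at 1 to 10 FPKM in EBs, RNA POL2 was at 25.7%, 49.9% and 36.8% of the higher, within and lower genes, and TAF9B at 23.2%, 30.9% and 25.6%, so here the higher genes had fewer peaks than the lower ones. Among genes at 10 to 50 FPKM in EBs, RNA POL2 was at 57.6%, 71.1% and 53.6% of the higher, within and lower genes, and TAF9B at 34.2%, 35.1% and 29.2%. At 50 FPKM or more, RNA POL2 was at 72.8%, 82.7% and 70%, and TAF9B at 38.3%, 38.5% and 21.1%, the lower genes numbering 90.

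Over all 12503 genes an RNA POL2 peak was at 49.9% and a TAF9B peak at 29.8%. Of 29 cell division genes 17 had an RNA POL2 peak and 15 a TAF9B peak at a start, of 16 TFIID genes 13 and 8, and of 23 ribosomal protein genes 23 and 9. Of the 6 motor neuron factors 0 had an RNA POL2 peak, and *Mnx1* and *Isl1* had a TAF9B peak. Of 13 pluripotency genes 0 and 2 had one, and of 20 synaptic vesicle genes 5 and 7. *Tubb3* had both kinds of peak and *Taf9b* itself had neither.

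Both sides were also replaced by the other day 6 EB library and the other newborn tissue, which are separate samples but share the remaining library with the comparison. Of the 3338 loci higher in EBs, 2828 (84.7%) were also more than 2-fold higher when the EB library labelled KO was set against the same cord, and 2287 (68.5%) when the EB library labelled WT was set against spinal column. Of the 4657 lower loci, 4237 (91%) and 3566 (76.6%) lay past 2-fold on the same side.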

How the data were processed

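RNA-seq libraries were compared from 6 expression tables of the series, in which the deposited values are FPKM that the authors obtained with TopHat and Cuffdiff on mm9 (versions not given in the sources used here). The tables' log2 fold change and p-value columns hold the authors' own comparisons and were not used. The deposited ChIP-seq peak lists carry a score from the authors' peak caller, and only peak positions were used. The EB and cord tables were joined on the first RefSeq accession and the locus, and 43 rows with repeated keys were left out. Symbols came from RefSeq (GRCm38.p6) for 22728 loci and from GENCODE vM1 for 233. The log2 ratio had no pseudocount and was centred on the median of loci above 1 FPKM in both libraries. A locus was called past 2-fold when above 1 FPKM in at least 1 library. With 1 library per side no test was possible, and the depth is unknown because the tables hold no counts.

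Genes were named by rule: the 15 highest and 15 lowest ratios among loci above 0 in both libraries, at 10 FPKM or more in the higher one and with status OK in both tables, the 5 highest values on either side among loci listed at 0 on the other, and members of 57 lists. The comparison, its members and the lists were chosen with earlier results of these data known. Some genes under the naming rule are not reported here. Alternatives changed the centring, pseudocount, filter, threshold, status filter, a length trend and either library. Promoters and microRNA sequences are from RefSeq on GRCm38.p6. Scripts ran on Python 3.11.15 with numpy 2.4.6 and pandas 2.3.3, and were tested on simulated data. Figures were drawn with matplotlib 3.10.9.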

Additional observations from a re-analysis of the deposited data

How the results depend on the processing

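Over 13 settings, 95 of 110 alternative values of the 9 main results kept their direction and stayed within 1.5 times the reported count, or within the counting interval of a share. That interval treats the genes of a list as independent and is wide for short lists, so the 95 is no measure of stability. Motor neuron factors at 33.3% with equal sums, against 66.7%, still counted as kept. Loci higher in EBs numbered 5074 with no filter on low values and 1412 at 4-fold, and loci lower in EBs numbered 2757 above 1 FPKM in both libraries and 2976 at 4-fold. The share of motor neuron factors past 2-fold higher was 0% (0 of 4) with EBs labelled KO, against 66.7%. Cell division genes were higher in 100% with no centring, with a length trend removed or with EBs labelled KO, against 96.6%. Astrocyte markers were lower in 100% when centred on housekeeping genes or at equal sums, and oligodendrocyte markers in 100% with the length trend removed. When EBs and cord both had to exceed 1 FPKM, 40.9% of Hox genes were lower, against 48.6%, and the direction of the list turned, with more members higher than lower. TFIID genes were higher in 58.8% with no centring and in 11.8% at equal sums or at 4-fold. The cause of these shifts was not tested.

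Of 1984 alternative log2 ratios of 224 named genes, 24 changed side. With EBs labelled KO the ratios were -0.33 for *Crabp1*, -1.53 for *Cxcr4*, -3.00 for *Dll3*, -0.07 for *Ercc2*, -1.30 for *Grb10*, -0.27 for *Hoxb5*, 0.25 for *Hprt*, -2.89 for *Isl1*, -3.26 for *Lhx3*, -6.02 for *Lhx4*, -0.41 for *Mnx1*, -1.51 for *Neurod1*, -1.19 for *Neurog2*, -3.65 for *Nkx6-1*, -0.29 for *Slit3*, -0.02 for *Sox3*, 0.10 for *Tet1* and -2.73 for *Unc5a*. With spinal column in place of cord they were -1.61 for *Cdkn1c*, -1.16 for *Grb10*, 0.44 for *Hoxb8*, 0.31 for *Ina*, -1.51 for *Mest* and -0.44 for *Slc17a7*.

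No paired analysis was possible because each group is 1 library and no test was made, and for the same reason no replicate was left out. The tables give no read counts, so the depth behind low values is unknown.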

Other observations

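Genes outside the neuronal and growth programmes were compared between the EB library labelled WT and the cord. Of 11 expressed genes of antigen presentation and interferon response, 8 were more than 2-fold higher in EBs, where 23.4% of all expressed loci were, and 0 were lower. *Bst2*, a membrane protein that tethers viruses, was at 88.1 FPKM in EBs and 4.19 FPKM in cord (log2 ratio 3.91), the class I gene *H2-K1* at 47.1 and 6.42 FPKM (2.39) and the transcription factor *Irf1* at 15.8 and 1.48 FPKM (2.93). *B2m* was within 2-fold. Genes of stress and apoptosis were higher in 8 of 12 cases, among them *Pmaip1* (9.82 and 0.189 FPKM, 5.22), *Trib3* (12.5 and 0.467 FPKM, 4.26) and the p53 target *Ccng1* (94.0 and 11.0 FPKM, 2.61). Cholesterol synthesis and uptake genes were higher in 9 of 13, with *Fdps* at 510 and 84.0 FPKM (2.12).

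Of 25 imprinted genes 8 were higher and 13 lower, where 23.4% and 32.6% of all expressed loci were. The paternally expressed *Nnat* was at 23.1 and 1035 FPKM (-5.97) and *Mest* at 166 and 35.5 FPKM (1.74, or -1.51 against spinal column), and the maternally expressed *Rian* was at 35.1 and 185 FPKM (-2.88) and *Grb10* at 124 and 25.2 FPKM (1.82). *Grb10* was at 14.3 FPKM in the EB library labelled KO, and its ratio was -1.16 against spinal column. Of 11 expressed hypoxia genes 3 were higher, near the 23.4% of all expressed loci, and 1 lower, with the glucose transporter *Slc2a1* at 323 and 28.0 FPKM (3.04) and *Ldha* at 155 and 149 FPKM. Of 19 expressed Fgf, Wnt and Bmp ligands 11 were lower and 2 higher, set against the same 32.6% and 23.4%, the lower ones including *Fgf13* (3.51 and 50.4 FPKM) and *Bmp6* (0.904 and 12.4 FPKM), while *Bmp7* and *Gdf11* were within 2-fold.

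Some genes did not follow the order of days in the libraries labelled WT. In the order ES cells, day 2, day 4 and day 6, the FPKM of *Pou5f1* were 859, 829, 19.9 and 198, those of *Nanog* 168, 60.4, 3.77 and 62.5, and those of the housekeeping gene *Hprt* 142, 99.3, 5.03 and 29.8. Each day is 1 library from a separate table.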
